A study of Homo sapiens with 18 samples.

Results

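FKBP5, TSC22D3, CEBPD, ZBTB16, PER1 and KLF9 are genes long known to respond to androgens and glucocorticoids, and their expression was followed across an inducible system that targets androgen response elements (AREs). The 6 genes were taken by symbol and are 6 of the 57773 genes in the expression table. The rule uses no expression value, but the genes were chosen with earlier results of these data known. Their counts beside the shares of all tested genes are therefore descriptions. Each symbol matched 1 row. Of the 6, 5 passed the filter on low counts (at least 10 counts in at least 3 libraries) and were among the 5816 genes tested, while ZBTB16 did not pass and is described from its counts.

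RNA-seq was performed on RWPE1, an established line of non-transformed human prostate epithelial cells grown in keratinocyte medium. All cells carried an ectopic MACC construct, delivered by lentivirus and kept under blasticidin selection. The MACC constructs join a DNA-binding domain that recognizes AREs to ERT2, a mutant estrogen receptor ligand-binding domain that moves the fusion into the nucleus when tamoxifen is added. The neutral MACC carried a 3X FLAG tag and no effector, the repressive MACC also carried the KRAB repressor domain, and the activating MACC also carried the VP64 activation domain. Each line was given vehicle (ethanol) or tamoxifen for 48 hours, with 3 biological replicates in each of the 6 groups. The tamoxifen dose is given as 1.5 uM in one label and as 1.25 uM in another. There was 1 line per construct and none without a construct, so an effect of a construct cannot be told apart from that of its line, and the neutral line holds tamoxifen and the DNA-binding domain together.

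Steroid receptors are transcription factors that the Hsp90 chaperone machinery keeps ready to bind hormone, and on activation they bind paired hexamers in DNA and recruit coactivators. Several of these receptors recognize nearly the same element, so many of their target genes are shared. FKBP5 encodes an Hsp90 co-chaperone that lowers the hormone sensitivity of the glucocorticoid receptor, TSC22D3 encodes the glucocorticoid-induced leucine zipper protein, and CEBPD, KLF9, ZBTB16 and PER1 encode transcriptional regulators.

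The 18 libraries held 675609 to 792282 estimated counts each, low totals at which 3 counts correspond to 3.79 to 4.44 CPM. These are counts assigned to genes, and the number of reads sequenced was not examined. The 6 genes together took 4255 counts, 0.0317% of all. Most counts (89.0% of those at genes matched to the annotation) lay at the 23.05% of matched genes whose exons overlap a gene on the opposite strand, and the strand setting of the quantification was not stated. If that setting was opposite to the strand of the kit, counts at a gene with no opposite-strand overlap would not be of its own sense mRNA, which limits what the counts of the members stand for. This was not tested. FKBP5, CEBPD, PER1 and KLF9 have no exon overlapped from the opposite strand. TSC22D3 has 71 such bases (1.43% of its exonic bases) opposite NCBP2L, which had 0 counts in every library, and ZBTB16 has 338 (2.04%) opposite ENSG00000289230, which is not analysed here. The basal epithelial markers KRT5, KRT14 and TP63 were counted in all 18 libraries. The luminal marker KLK3 was at 0 throughout. The summed level of the luminal keratins KRT8 and KRT18, which lie opposite each other, was lower with tamoxifen without overlap in all 3 lines. It was 1152 to 1308 CPM with vehicle and 1094 to 1149 with tamoxifen in the repressive line, 946 to 1001 and 775 to 862 in the neutral line, and 1008 to 1045 and 789 to 894 in the activating line. By CPM, 25.2%, 13.4% and 16.1% of tested genes did not overlap in these lines. The KRT8 row had 13079 counts in sum and the KRT18 row 437, and which gene of the pair they stand for was not tested. The summed basal markers KRT5, KRT14, TP63, ITGB4 and LAMB3 were higher with tamoxifen without overlap in the neutral line (1723 to 2186 CPM against 2298 to 2797), and overlapped in the repressive (1725 to 2442 against 2176 to 2959) and activating lines (1995 to 2401 against 2325 to 2888). Their part in the results for the members was not tested. Of the fibroblast markers COL1A1 alone had any count (0 to 13 per library).

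The steroid receptors described here were sparsely counted. NR3C1 (the glucocorticoid receptor) had 0 to 13 counts per library. NR3C1 in the activating line had 7 to 10 counts per library with vehicle and 1 to 2 with tamoxifen, without overlap (26 and 4 in sum), a log2 fold change of -2.66 with an unadjusted p of 0.0171 in DESeq2, no adjusted p under independent filtering and an adjusted p of 0.363 in edgeR. Summed counts were 21 and 16 in the repressive line and 7 and 15 in the neutral line. NR3C2 (the mineralocorticoid receptor) had 0 to 4 counts per library, and PGR (the progesterone receptor) 0 in all 18. ESR1 had 27 to 85 counts per library, and part of its sequence is present in the ERT2 domain of every construct. Reads from a construct and from the endogenous gene cannot be told apart in these counts.

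AREs near the genes were located in the GRCh37 genome, because the constructs are built to bind them. The letters searched were the half-site AGAACA, any 3 bases and the half-site TGTTCT, with at most 1 mismatch in the 12 defined letters. The search covered 100 kb on either side of the annotated start and both strands, since the element is its own reverse complement. FKBP5 and ZBTB16 extend beyond this window, so the far part of each gene was not searched. Of 5635 tested genes matched to the annotation, 53.0% had at least 1 such match and 3.74% an exact one. TSC22D3 had 6 matches, a number reached by 0.0710% of tested genes, KLF9 had 2 (18.8% of tested genes had as many), FKBP5, CEBPD and PER1 had 1 each, and ZBTB16 had none. No match near a member was exact and none overlapped an annotated exon. Each start is the outermost end of the annotated gene. PER1 has 19 annotated transcripts and TSC22D3 18, so distances and sides may differ by transcript. The matches closest to a start are printed below with that of FKBP5, on the plus strand of GRCh37, with 10 flanking bases on each side. Capitals mark the letters that equal the searched half-sites, and the lower-case letter inside a half-site is the mismatch.
PER1, chr17:8057778-8057792, inside PER1, 2.04 kb downstream of its start: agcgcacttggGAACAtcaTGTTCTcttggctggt
TSC22D3, chrX:107011074-107011088, inside TSC22D3, 9.49 kb downstream of its start: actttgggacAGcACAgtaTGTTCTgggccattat
TSC22D3, chrX:107037094-107037108, inside NCBP2L, 16.5 kb upstream of its start: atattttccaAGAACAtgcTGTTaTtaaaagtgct
TSC22D3, chrX:106987868-106987882, inside TSC22D3, 32.7 kb downstream of its start: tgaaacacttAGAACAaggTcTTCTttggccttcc
TSC22D3, chrX:106987496-106987510, inside TSC22D3, 33.1 kb downstream of its start: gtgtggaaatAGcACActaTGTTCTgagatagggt
FKBP5, chr6:35787844-35787858, inside LHFPL5, 91.5 kb upstream of its start: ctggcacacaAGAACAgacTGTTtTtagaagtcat

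The CEBPD match lay 78.6 kb downstream of its start, inside SPIDR, and the KLF9 matches lay 67.3 kb downstream inside SMC5 and 66.3 kb upstream between genes. Within 50 kb of a start only TSC22D3 (4 matches) and PER1 (1) had any, against 31.9% of tested genes. RefSeq promoter sequences (GRCh38.p14, windows of 300 bases across the start) were at hand for FKBP5, TSC22D3, PER1 and KLF9. A half-site was found in a promoter of FKBP5, as in 14.8% of all 35116 promoters, and in none of the other three genes. A match of letters is a description of the sequence and does not show binding in these cells. In the prostate cancer line LNCaP the authors report FKBP5 enhancers with AREs that the constructs occupy. The positions of those enhancers were not compared with the matches here.

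**Figure D1:**
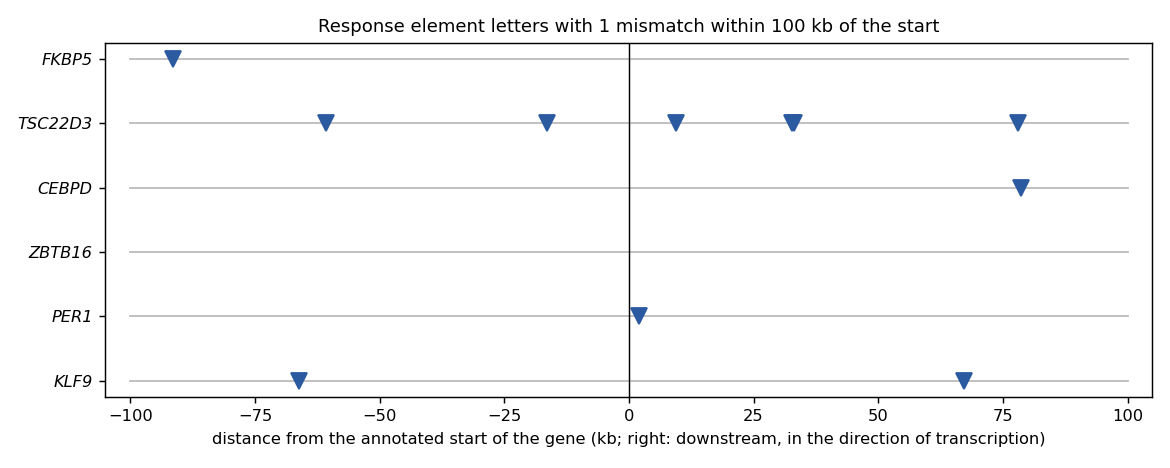
Positions of ARE letters with 1 mismatch (triangles) relative to the annotated start of each gene, in kb along the direction of transcription, on a window of 100 kb either side. TSC22D3 has 6 matches on both sides of its start, PER1 has 1 close to its start, FKBP5, CEBPD and KLF9 have matches beyond 66 kb, and ZBTB16 has none.

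With tamoxifen in the repressive line, FKBP5, TSC22D3 and CEBPD fell, each to a level below all other groups. PER1 and ZBTB16 were also lower in every tamoxifen library than in any vehicle library, but PER1 did not pass the test and ZBTB16 had too few counts for it. KLF9 was lower in every tamoxifen library by CPM (counts scaled by the library total) but overlapped by normalized count (counts divided by the DESeq2 size factor). In all, 3 of the 5 tested members passed, where 9.65% of all tested genes passed in either direction, and normalized counts with tamoxifen and vehicle did not overlap for 5 of the 6 members, where they did not overlap for 24.2% of tested genes. By CPM they did not overlap for 6 of the 6, and for 25.2% of tested genes. In bulk RNA, fewer cells of a type and less RNA per cell cannot be told apart.

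FKBP5 (ENSG00000096060, GRCh37 chromosome 6, 35541362 to 35696360, minus strand) had 64, 29 and 51 counts in the 3 vehicle libraries of the repressive line and 6, 7 and 8 in the tamoxifen libraries. Every tamoxifen library was below every vehicle library. The normalized count went from 44.6 ± 17.5 to 7.44 ± 1.41 (SD, n = 3 each), a fitted log2 change of -2.59 (SE 0.45, adjusted p in DESeq2 = 3.92e-07). In the neutral line the counts were 26, 38 and 29 with vehicle and 15, 12 and 24 with tamoxifen. These groups did not overlap either, and the log2 fold change was -0.87 (95% interval -1.63 to -0.11) with an unadjusted p of 0.0250. Independent filtering in DESeq2 gave this gene no adjusted p, and without that filtering the adjusted p was 0.514. In the activating line the vehicle libraries had 51, 34 and 39 counts and the tamoxifen libraries 60, 47 and 69, which overlap. The normalized count was 38.3 ± 7.52 with vehicle and 56.0 ± 10.7 with tamoxifen (SD, n = 3 each), with a log2 fold change of 0.55 (95% interval -0.12 to 1.21) and an unadjusted p of 0.109 in DESeq2. Ordered by mean, FKBP5 was highest in activating tamoxifen, followed by the 3 vehicle groups, neutral tamoxifen and repressive tamoxifen. Each neighbouring pair among the first 4 overlapped, while neutral tamoxifen and repressive tamoxifen each stood clear of the group above.

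TSC22D3 (ENSG00000157514, chromosome X, 106956451 to 107020572, minus strand) had 33, 44 and 22 counts with vehicle and 4, 5 and 3 with tamoxifen in the repressive line. The normalized count went from 30.4 ± 9.69 to 4.28 ± 1.37 (SD, n = 3 each), a fitted log2 change of -2.84 (SE 0.53, adjusted p in DESeq2 = 3.02e-06). This was the lowest group by a wide gap, and no other group was separated from its neighbour. In the neutral line the counts were 25, 29 and 39 with vehicle and 53, 32 and 35 with tamoxifen, a log2 fold change of 0.35 (95% interval -0.34 to 1.05). In the activating line they were 39, 33 and 36 with vehicle and 39, 43 and 25 with tamoxifen, a log2 fold change of 0.03 (95% interval -0.66 to 0.72). Both pairs of groups overlapped, and the intervals allow about as much rise as fall in the activating line.

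CEBPD (ENSG00000221869, chromosome 8, 48649475 to 48650726, minus strand, a gene of 1 exon) encodes a leucine zipper transcription factor of the C/EBP family that is induced in hormone and inflammatory responses. It was the most abundant member per kilobase of exon, with a mean normalized count of 85.4 per kb over the 18 libraries. KLF9 followed at 8.26 per kb, TSC22D3 at 5.79, FKBP5 at 3.04, PER1 at 1.63 and ZBTB16 at 0.256. In the repressive line CEBPD had 161, 158 and 142 counts with vehicle and 25, 26 and 32 with tamoxifen. All tamoxifen libraries lay far below the vehicle libraries, and the normalized count went from 142 ± 11.2 to 29.3 ± 4.69 (SD, n = 3 each). The fitted log2 change was -2.28 (SE 0.26, adjusted p in DESeq2 = 1.21e-15).

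CEBPD was the 1 member of the 5 tested that passed in the neutral line, where 0.774% of tested genes passed. It was also the only member that independent filtering left with an adjusted p there, as it did 1193 of the 5816 tested genes. It had 126, 117 and 140 counts with vehicle and 76, 67 and 66 with tamoxifen, with no overlap. The normalized count fell from 127 ± 13.5 to 68.6 ± 4.16 (SD, n = 3 each), and the fitted log2 change was -0.89 (SE 0.24, adjusted p in DESeq2 = 0.00903). This call was lost with edgeR (log2 fold change -0.89, adjusted p = 0.0514), when genes with opposite-strand overlap were left out (-0.96, adjusted p = 0.0789 with DESeq2), when the 6 neutral libraries were fitted alone (no adjusted p), and without neutral vehicle replicate 1 (0.0542) or 3 (0.0782) or neutral tamoxifen replicate 2 (0.102) or 3 (0.0910). In this line the values of FKBP5 and CEBPD, 2 of the 6 members, did not overlap between treatments, where 13.3% of tested genes did not. In the activating line CEBPD had 164, 68 and 152 counts with vehicle and 139, 204 and 153 with tamoxifen. Vehicle replicate 2 was the lowest of these by a wide margin, the groups overlapped, and the log2 fold change was 0.41 (95% interval -0.03 to 0.85, DESeq2 adjusted p = 0.288). Without that library the log2 fold change was 0.13.

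KLF9 (ENSG00000119138, chromosome 9, 72999520 to 73029573, minus strand) is a Krüppel-like zinc finger factor induced by glucocorticoids in many tissues. It was the 1 tested member that passed in the activating line, where it was higher with tamoxifen and 2.8% of tested genes passed. Of the members only KLF9 and CEBPD had an adjusted p there, as did 1644 of the 5816 tested genes. The vehicle libraries had 28, 41 and 43 counts and the tamoxifen libraries 75, 83 and 44. Tamoxifen replicate 3 lay just above the vehicle range and the other replicates well above it. The normalized count went from 34.8 ± 7.80 to 64.6 ± 20.8 (SD, n = 3 each), a fitted log2 change of 0.89 (SE 0.31, adjusted p in DESeq2 = 0.0436). The call did not hold with edgeR (adjusted p = 0.128), without independent filtering (0.117 with DESeq2), without the genes that have opposite-strand overlap (0.427), in the 6 activating libraries alone (0.155), or when any single library of the 2 groups other than tamoxifen replicate 3 was left out (adjusted p = 0.0730 to 0.284). KLF9 and ZBTB16, 2 of the 6 members, had values that did not overlap in this line, where 16% of tested genes had such values. In the repressive line KLF9 had 42, 39 and 45 counts with vehicle and 22, 32 and 30 with tamoxifen, with a log2 fold change of -0.38 (95% interval -1.02 to 0.26). The raw counts and the CPM of these groups did not overlap, whereas the normalized counts did (35.03 to 41.3 with vehicle, 21.4 to 37.1 with tamoxifen). In the neutral line it had 39, 49 and 37 counts with vehicle and 42, 63 and 43 with tamoxifen, a log2 fold change of 0.23 (95% interval -0.37 to 0.84). Groups next to each other in the order of KLF9 means all overlapped.

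ZBTB16 (ENSG00000109906, chromosome 11, 113929763 to 114127487, plus strand) encodes the zinc finger repressor PLZF. It had 5, 7 and 6 counts with vehicle in the repressive line and 0, 1 and 0 with tamoxifen. The summed counts went from 18 to 1, a ratio of tamoxifen to vehicle, corrected for library totals, of 0.0580 (exact 95% interval 0.00139 to 0.368, covering counting error only). In the activating line the direction was the opposite, with 2, 3 and 2 counts with vehicle and 9, 6 and 9 with tamoxifen, a ratio of 3.57 (1.49 to 9.80). In the neutral line it had 10, 3 and 3 counts with vehicle and 7, 1 and 5 with tamoxifen, a ratio of 0.804 (0.356 to 1.78). The two-sided exact permutation test on CPM gave p = 0.1 in the repressive line, 0.1 in the activating line and 0.8 in the neutral line, and 0.1 is the smallest value that 3 against 3 libraries allow. All activating vehicle counts and all repressive tamoxifen counts were at or below the floor of 3 counts per library.

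PER1 (ENSG00000179094, chromosome 17, 8043790 to 8059824, minus strand) encodes a repressor of the circadian clock that steroids also induce directly. In the repressive line it had 15, 22 and 13 counts with vehicle and 10, 5 and 2 with tamoxifen. The ranges did not overlap, but the tamoxifen libraries spread widely, and the log2 fold change of -1.37 (95% interval -2.57 to -0.18) did not pass (DESeq2 adjusted p = 0.138). In the neutral line the counts were 9, 5 and 11 with vehicle and 9, 15 and 8 with tamoxifen, a log2 fold change of 0.34 (95% interval -0.83 to 1.50). In the activating line they were 12, 15 and 28 with vehicle and 15, 9 and 12 with tamoxifen, a log2 fold change of -0.56 (95% interval -1.64 to 0.51). With intervals of this width, a change of 1 on the log2 scale was not detectable with these counts. Groups next to each other in the order of PER1 means all overlapped.

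**Figure D2:**
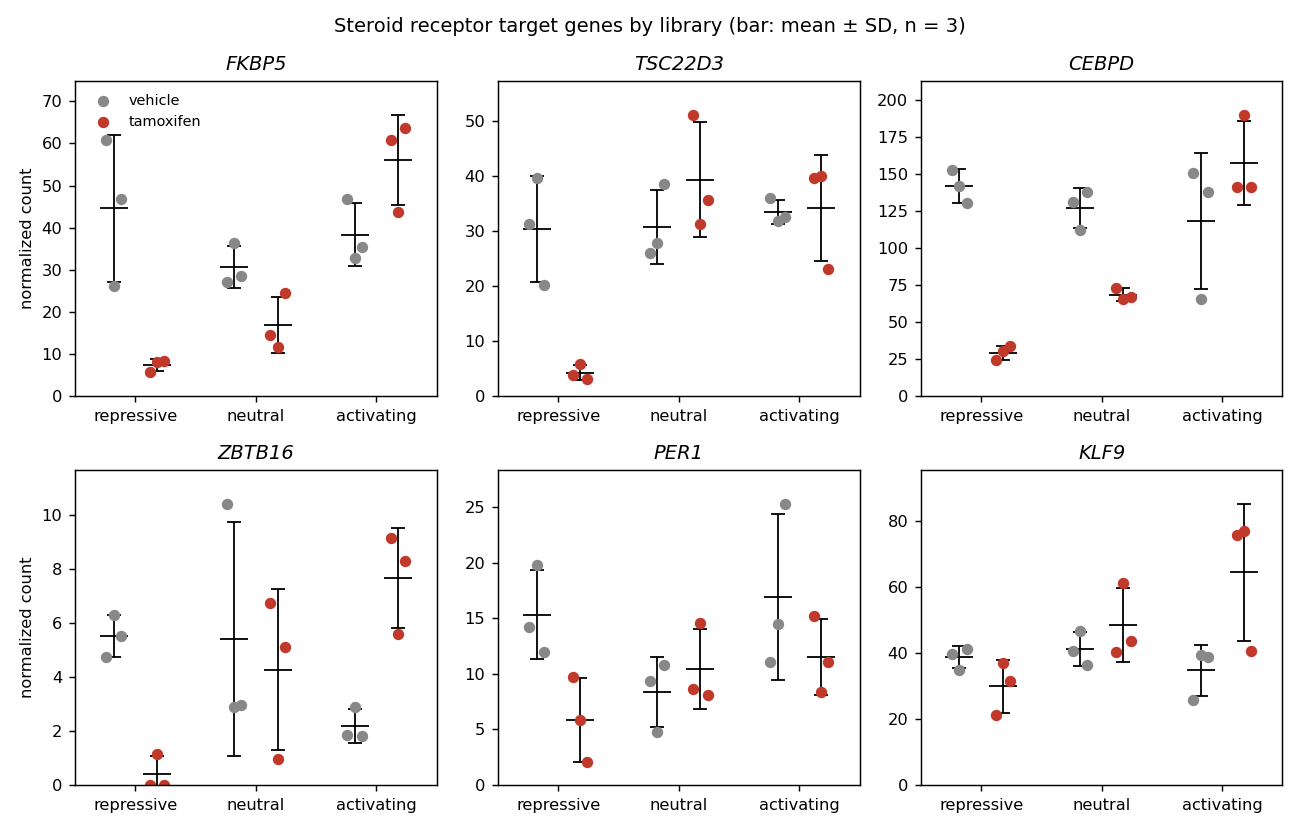
Normalized counts (counts divided by the size factor of the library, linear axis from 0) of each gene in the 18 libraries, by line and treatment. Points are libraries, and black bars give the mean and SD of 3. The repressive tamoxifen libraries are the lowest for FKBP5 (7.44 ± 1.41), TSC22D3 (4.28 ± 1.37) and CEBPD (29.3 ± 4.69), and the highest KLF9 and ZBTB16 means are in activating tamoxifen.

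The effects of the 3 constructs were then compared with each other, by testing the difference between tamoxifen effects. Between the repressive and neutral lines 2 of the 5 tested members differed, where 3.85% of tested genes did. For TSC22D3 the repressive effect was lower than the neutral one by 3.20 on the log2 scale (difference -3.20, SE 0.64, DESeq2 adjusted p = 3.10e-05), and for CEBPD the difference was -1.39 (SE 0.35, adjusted p = 0.00310). For FKBP5 the difference was -1.72 (SE 0.59) and did not pass (adjusted p = 0.0519). It did pass with TMM size factors (adjusted p = 0.0489), total-count size factors (0.0282), no filter on low counts (0.0402) or without neutral tamoxifen replicate 2 (0.0327, all with DESeq2). The difference for KLF9 (-0.61, 95% interval -1.49 to 0.27) did not pass. For PER1 it was -1.71 (95% interval -3.38 to -0.04) with an unadjusted p of 0.0447 in DESeq2. PER1 had no adjusted p under independent filtering and an adjusted p of 0.342 without it. The FKBP5 and CEBPD values were lower with neutral tamoxifen than with neutral vehicle, whereas those of TSC22D3 were not.

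Between the activating and neutral lines 1 of the 5 tested members differed, where 0.619% of tested genes did. This was CEBPD, with a difference of 1.30 (SE 0.33, DESeq2 adjusted p = 0.00658), which was 1.34 and did not pass when genes with opposite-strand overlap were left out (adjusted p = 0.0641). CEBPD was the only member with an adjusted p for this difference, which independent filtering left to 1419 of the 5816 tested genes. FKBP5 had a difference of 1.42 (SE 0.52) and an unadjusted p of 0.00613, with no adjusted p under independent filtering and an adjusted p of 0.360 without it. Between the activating and repressive lines 3 of the 5 tested members differed, where 4.25% of tested genes did. The differences were 3.13 for FKBP5 (SE 0.56, DESeq2 adjusted p = 2.61e-06), 2.87 for TSC22D3 (SE 0.64, adjusted p = 0.000304) and 2.69 for CEBPD (SE 0.35, adjusted p = 1.95e-12). KLF9 differed by 1.27 (SE 0.45) and did not pass (adjusted p = 0.0606), though it did with total-count size factors (adjusted p = 0.0284) and without activating tamoxifen replicate 3 (0.0127) or repressive tamoxifen replicate 2 (0.0464). PER1 had a difference of 0.81 (95% interval -0.80 to 2.42).

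The effects were ordered repressive below neutral below activating for FKBP5, CEBPD and KLF9, 3 of the 5 tested members, an order found in 18.4% of tested genes. The effect was lowest in the repressive line for 5 of 5, as for 37.2% of tested genes. These comparisons share groups, so the orders are a description. With vehicle alone no difference between the 3 lines was detected for these genes. None of the 5 tested members differed between the repressive and neutral lines, the activating and neutral lines or the activating and repressive lines in DESeq2 (0 at an unadjusted p under 0.05 and 0 with edgeR), where 2.51%, 0.808% and 1.72% of tested genes did. The largest of these differences was for PER1, 1.03 between activating and neutral vehicle (95% interval -0.09 to 2.15). Independent filtering left no member an adjusted p in that comparison.

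**Figure D3:**
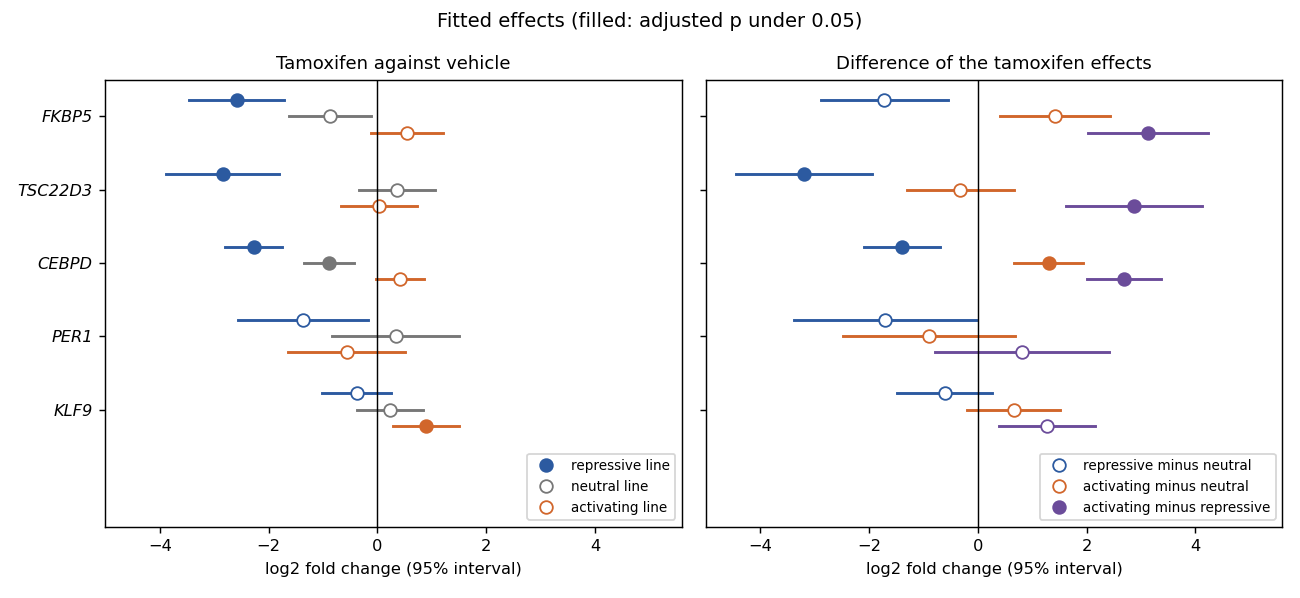
Fitted log2 fold changes of the 5 tested genes with 95% intervals, for tamoxifen against vehicle in each line (left) and for the differences between lines (right). Filled points passed at an adjusted p under 0.05, which FKBP5, TSC22D3 and CEBPD did in the repressive line, CEBPD in the neutral line and KLF9 in the activating line. Open points include those that independent filtering left without an adjusted p.

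Across the 18 libraries the members with the most similar profiles were FKBP5 and CEBPD (Pearson r = 0.90 of log2 normalized counts) and CEBPD and TSC22D3 (0.79), while PER1 and KLF9 were the least alike (0.14). These values are descriptions over 18 libraries in 6 groups, and the group differences described above enter them. Among 2573 genes averaging 20 or more normalized counts, the 3 most like FKBP5 were LTBR (0.92), SPIDR (0.90) and CEBPD itself, and those most like CEBPD were LTBR (0.94), MCF2L2 (0.90) and FKBP5. The LTBR row, a receptor of the tumor necrosis factor family by name, overlaps the sodium channel gene SCNN1A on the opposite strand. Which gene of the pair its counts stand for depends on the strand setting, which was not stated and was not tested. The same holds for MCF2L2 (opposite B3GNT5), RPL4 (ZWILCH), EPB41L4A (EPB41L4A-AS1), NEIL1 (MAN2C1), EIF4B (TNS2-AS1), VPS4A (COG8), C1orf192 (ENSG00000289106) and AC074212.5 (SIX5). The genes most like TSC22D3 were RPL4 (0.93), EPB41L4A (0.92) and RP11-111F16.2 (0.92). For PER1 they were NEIL1 (0.79), NDUFB10 (0.77) and EIF4B (0.74), and for KLF9 VPS4A (0.72), C1orf192 (0.71) and AC074212.5 (0.71).

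SPIDR, a DNA repair scaffold gene, is also the neighbour of CEBPD, and it holds the 1 ARE match near that gene. It runs on the plus strand of chromosome 8 from 48173470 to 48648868 and ends 1.86 kb from the CEBPD start, with no exons overlapped from the opposite strand. Its mean normalized count went from 30.4 to 4.74 with tamoxifen in the repressive line, a fitted log2 change of -2.72 (SE 0.54, adjusted p in DESeq2 = 1.64e-05). It was 27.0 with vehicle and 11.5 with tamoxifen in the neutral line, and 22.5 and 43.7 in the activating line, where neither log2 fold change (-1.23 and 0.95) had an adjusted p. PRKDC, on the other side of CEBPD, had a log2 fold change of -0.26 in the repressive line (SE 0.79). LHFPL5, which holds the FKBP5 match, had a log2 fold change of 0.01 in the repressive line (SE 0.19, DESeq2 adjusted p = 0.983) and lies opposite SRPK1. The neighbours were looked at after the values of the members had been seen.

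Genes that act with the members were described from lists. Of the 12 Hsp90 and Hsp70 chaperones and co-chaperones that handle steroid receptors, 11 were tested and 0 passed in any line in DESeq2 or edgeR, with 2, 0 and 2 at an unadjusted p under 0.05 in the repressive, neutral and activating lines, where 19.7%, 7.75% and 10.4% of all tested genes were. Independent filtering left an adjusted p to 11, 1 and 3 of them. Their median log2 fold changes were -0.34, 0.13 and 0.10, beside medians of -0.02, 0.00 and 0.00 over all tested genes. Of 16 clock genes 15 were in the table and 5 were tested, and 0 passed in either tool, with 1, 1 and 0 at an unadjusted p under 0.05. Of these 5, independent filtering left an adjusted p to 4, 0 and 0 in the repressive, neutral and activating lines. Most clock partners of PER1 were thus below the filter.

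Of 35 relatives of the members in the FKBP, TSC22 domain, C/EBP, PER, KLF and ZBTB families, 20 were tested. In the repressive, neutral and activating lines 1, 0 and 2 passed, beside the 9.65%, 0.774% and 2.8% of all tested genes given above, and 15, 2 and 2 had an adjusted p. FKBP15, whose exons lie partly opposite SLC31A2, rose in the repressive line by 0.59 on the log2 scale (SE 0.08, DESeq2 adjusted p = 1.79e-11) and in the activating line by 0.29 (SE 0.08, adjusted p = 0.00927), where edgeR did not call it (adjusted p = 0.109). CEBPB, a C/EBP factor of inflammation and differentiation with 231 bases opposite CEBPB-AS1, fell by 0.65 in the activating line (SE 0.16, adjusted p = 0.00113). No relative passed in the neutral line with DESeq2 or edgeR (0 genes, 3 at an unadjusted p under 0.05). The median log2 fold changes of the relatives were -0.49, -0.04 and -0.06 in the repressive, neutral and activating lines.

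Of 48 other gene symbols listed as androgen or glucocorticoid targets, 47 were in the table and 16 were tested. The list holds both CAVIN2 and SDPR, 2 symbols of the same gene. In the repressive line 4 fell and 3 rose, beside the 9.65% of all tested genes that passed (327 higher and 234 lower of 5816), and edgeR called 6. Those that fell were the metallothioneins MT1X and MT2A, which bind metal ions, the sodium channel subunit SCNN1A and DDIT4, an inhibitor of mTORC1. MT2A went from 21.2 ± 8.83 to 4.12 ± 2.41 normalized counts (SD, n = 3 each, DESeq2 adjusted p = 0.00237), MT1X from 5.82 ± 1.25 to 0.349 ± 0.605 (adjusted p = 0.0343) and DDIT4 from 65.9 ± 8.96 to 33.5 ± 9.17 (adjusted p = 0.00282). The MT1X mean with tamoxifen was below the floor of 3 counts per library. SCNN1A went from 19.2 ± 9.50 to 3.84 ± 6.66 (adjusted p = 0.0377) with overlapping libraries, and lies opposite LTBR. Those that rose were CDKN1C, a cyclin-dependent kinase inhibitor, PIK3IP1, an inhibitor of PI3K, and NDRG1, a stress- and hormone-induced gene. CDKN1C went from 5.23 ± 0.569 to 15.7 ± 4.15 normalized counts (adjusted p = 0.0399), PIK3IP1, with 36 bases opposite PIK3IP1-DT, from 26.3 ± 8.30 to 60.5 ± 8.05 (adjusted p = 0.00328) and NDRG1 from 84.0 ± 27.2 to 151.6 ± 23.8 (adjusted p = 0.00583).

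In the neutral line 0 of the 16 passed in DESeq2 or edgeR, with 3 at an unadjusted p under 0.05, and independent filtering left an adjusted p to 4. Among the 3 was MT1X, at 13.7 ± 4.41 normalized counts with vehicle and 2.63 ± 2.97 with tamoxifen (SD, n = 3 each). Its log2 fold change was -2.38 (unadjusted p = 0.00360 in DESeq2, adjusted p = 0.329 in edgeR), so MT1X was lower in this line too. GLUL, also among the 3, was higher (1.07). HERC3, an E3 ubiquitin ligase gene, fell in the activating line by 0.23 on the log2 scale (SE 0.08, DESeq2 adjusted p = 0.0445), a call that edgeR did not make (adjusted p = 0.156). In the activating line independent filtering also left an adjusted p to 4 of the 16. Without one, CDKN1C was at 7.99 ± 2.77 normalized counts with vehicle and 41.3 ± 14.7 with tamoxifen (SD, n = 3 each), a log2 fold change of 2.36 that edgeR called (adjusted p = 0.00134). GLUL, the glutamine synthetase gene, was at 13.9 ± 2.503 and 46.6 ± 16.1, a log2 fold change of 1.75 that edgeR also called (adjusted p = 0.00993). These and SCNN1A (2.15), MT2A (1.00) and HERC3 were the 5 genes at an unadjusted p under 0.05 in DESeq2, and CDKN1C, GLUL, SCNN1A and MT2A were named after their values were seen. Of the 16 genes 5 were higher and 2 lower without overlap between treatments in the activating line, where 16% of tested genes did not overlap in either direction. In the repressive line 3 were higher and 3 lower (24.2% of tested genes), and in the neutral line 1 was higher and 3 lower (13.3%). The median log2 fold changes of the 16 genes were -0.11, 0.05 and 0.28 in the repressive, neutral and activating lines. The tested list held calls in both directions in the repressive line, while the 3 members called there all fell.

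**Figure D4:**
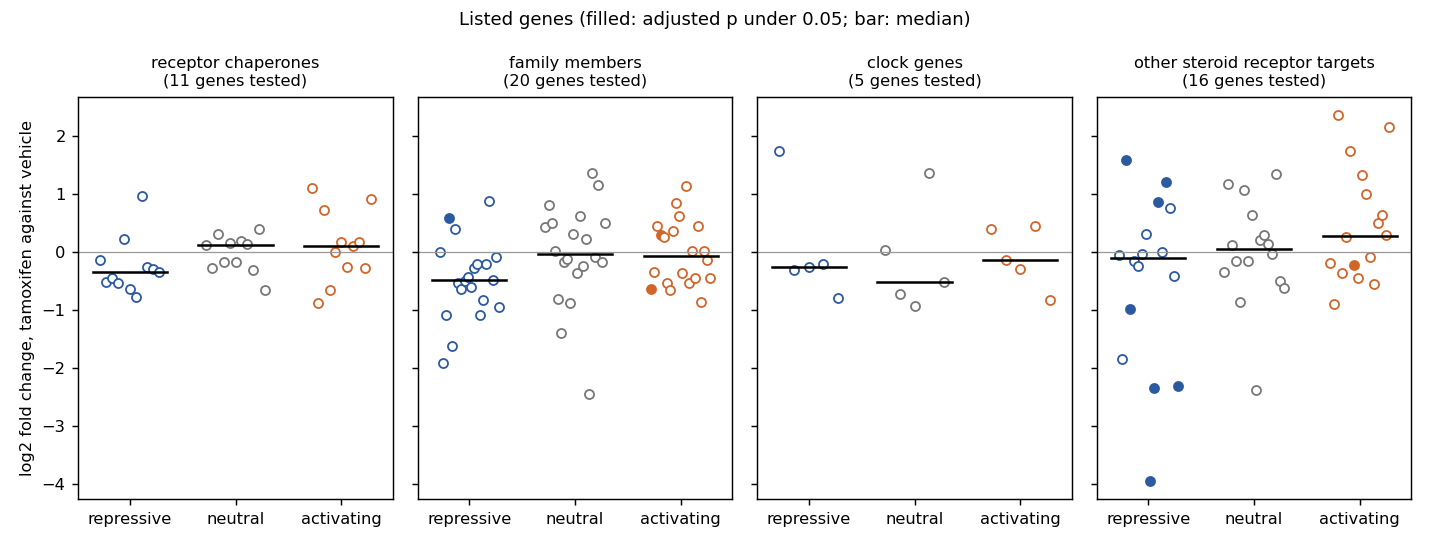
Log2 fold changes with tamoxifen of the tested genes in the lists of receptor chaperones (11 genes), family members (20), clock genes (5) and other steroid receptor targets (16), in the 3 lines. Filled points passed at an adjusted p under 0.05 and black bars are list medians, which for the other targets were -0.11, 0.05 and 0.28. Open points include genes that independent filtering left without an adjusted p.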

How the data were processed

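The authors prepared stranded mRNA libraries, aligned the reads to GRCh37 with the nf-core/rnaseq workflow and quantified genes with salmon (1.9.0), and the submitters' processing notes also name DESeq2 (1.28.0). The deposited values are the estimated counts per gene that the authors obtained with salmon, of which 1.10% were not whole, and they were rounded here. Every sample column was mapped by its label. All 18 libraries entered 1 fit in DESeq2 (1.42.0, R 4.3.3) with a mean per group, median-of-ratios size factors, the Wald test, independent filtering and Benjamini-Hochberg adjustment over all genes that reached 10 counts in 3 or more libraries. edgeR (4.0.16, quasi-likelihood) was the main alternative. Effects between lines were interaction contrasts. Counts of ZBTB16 were compared by an exact permutation test and by exact binomial intervals of summed counts. Both tools were tried on simulated counts for the tamoxifen effect in the repressive line only. Changes were placed only in genes averaging 20 or more normalized counts, and the other contrasts were not simulated. Opposite-strand overlap was taken from GENCODE 44 lifted to GRCh37, to which 96.1% of genes matched. Named genes were the 6 members, the called genes of the lists (up to 5 per list and line) and, for each tested member, the 3 genes with the highest correlation. The members and lists were chosen with earlier results of these data known. Alternatives were TMM and total-count size factors, no filter on low counts, no independent filtering, a replicate block, only genes without opposite-strand overlap, only the groups compared, and each library left out. Intervals of ratios of summed counts and floors cover counting error only, and intervals of fitted log2 fold changes (95%) include the spread between libraries. The labels call the replicates biological but name no separate source, so p-values measure the spread between these samples. Same-numbered vehicle and tamoxifen libraries did not deviate together (correlations of -0.30 to 0.14 over 1462 genes) and were not paired. Some listed genes are not reported here.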

Additional observations from a re-analysis of the deposited data

Results flagged for a closer look

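The tamoxifen effect differed between lines in 6 tests of the interaction, all on the log2 scale in DESeq2. TSC22D3 differed by -3.20 and CEBPD by -1.39 between the repressive and neutral lines. CEBPD differed by 1.30 between the activating and neutral lines. FKBP5 differed by 3.13, TSC22D3 by 2.87 and CEBPD by 2.69 between the activating and repressive lines. The test of the difference itself drew attention to each of them.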

How the results depend on the processing

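In the repressive line 3 members were called under every alternative run except without opposite-strand genes (2, since TSC22D3 is then not fitted), and FKBP5, TSC22D3 and CEBPD kept log2 fold changes of -2.86 to -2.30, -3.10 to -2.61 and -2.38 to -2.15 when single libraries were left out. The number called went from 1 to 0 in the neutral line with edgeR, without opposite-strand genes and with only the groups compared, and from 1 to 0 in the activating line with edgeR, without independent filtering, with the replicate block, without opposite-strand genes and with only the groups compared. Without opposite-strand genes it also went from 2 to 1 for repressive minus neutral, for the same reason, and from 1 to 0 for activating minus neutral. Leaving out single libraries gave 0 to 1 in the neutral line, 0 to 1 in the activating line, 1 to 3 for repressive minus neutral (1 without repressive vehicle replicate 2, where TSC22D3 at -2.96 had no adjusted p) and 3 to 4 for activating minus repressive. With the replicate block KLF9 in the activating line was 0.89 (adjusted p = 0.0671), the 1 member call that the block changed.

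Directions turned only for values that had not passed. The TSC22D3 vehicle baseline, repressive minus neutral, was 0.036 with total-count size factors and -0.26 to 0.20 without single libraries. Without single libraries the TSC22D3 effect in the activating line ran from -0.11 to 0.25, and the vehicle baselines ran from -0.18 to 0.0050 for KLF9 (repressive minus neutral), from -0.32 to 0.18 for CEBPD (activating minus neutral) and, for activating minus repressive, from -0.48 to 0.075 for FKBP5, -0.082 to 0.38 for TSC22D3, -0.48 to 0.026 for CEBPD, -0.27 to 0.38 for PER1 and -0.26 to 0.017 for KLF9. The ZBTB16 difference in the neutral line ran from -3.15 to 1.81 CPM. The cause of these changes was not tested. Total-count size factors shifted the median of all genes in the repressive line by -0.13, and no member call there changed. Without the filter on low counts ZBTB16 had a log2 fold change of -3.87 in the repressive line (DESeq2 adjusted p = 0.0575). ZBTB16 had 79 and PER1 215 counts over all libraries, few for any test. By CPM, an alternative chosen after seeing the data, 6 rather than 5 members did not overlap between treatments in the repressive line.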
